A study of Mus musculus with 6 samples.

Results

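Rbbp7 and 9 partner subunits of the chromatin complexes NuRD and PRC2 were described across 6 mouse arrays of hematopoietic stem cells (HSC). The members were Rbbp7, Rbbp4, Hdac1, Hdac2, Mta1, Mta2, Chd4, Ezh2, Eed and Suz12, taken as every probe set whose only gene symbol was a member. That gave 13 of the 28815 probe sets on the array, with 2 each for Rbbp7, Hdac1 and Eed. Rbbp7 was chosen because its level had differed between the genotypes in these same arrays, so its genotype difference is given as a description with no test. The partners were chosen as subunits of its complexes, to ask whether that difference extends to them.

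The study compared HSC from wild-type mice (WT) with HSC from mice without a working copy of Selp (Selp-/-), which encodes the cell adhesion protein P-selectin, to learn how P-selectin acts on them. Each genotype had 3 arrays, numbered 1 to 3 in the labels, and the strain of both was C57BL/6. The age of the mice, the sort used for the HSC, the construction of the Selp allele and the source of each array in separate or pooled mice are not given in the sources used here. The p-values therefore rest on how much these 6 arrays varied, which may not be the variation between mice.

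Rbbp7 and Rbbp4 are closely related histone-binding proteins of the WD repeat family, and each is found in several complexes that act on histones. NuRD joins them to the histone deacetylases Hdac1 and Hdac2, the Mta scaffold proteins and the nucleosome remodeller Chd4, and removes acetyl groups from histones. PRC2 joins them to the methyltransferase Ezh2 with Eed and Suz12, and places the repressive methyl mark on lysine 27 of histone H3. Both complexes are known to be needed for normal stem cell function and lineage choice in blood.

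The deposited intensities had array medians from 563 to 751, and levels below are log2 intensities after background correction and quantile normalization. The arrays numbered 3 of both genotypes stood apart from the other 4 arrays in their HSC and myeloid markers. Hlf, a transcription factor of HSC, lay between 12.13 and 12.53 in the 4 arrays numbered 1 and 2, and at 8.88 and 8.81 in WT 3 and Selp-/- 3, near the limit of 8.79 under which probe sets were not tested. Of the 9 tested HSC markers, 7 passed the test of the array number, all lower in number 3, and of 7 mast cell and basophil markers 6 passed, all higher. Xist, a noncoding RNA made from an inactive X chromosome, had an intensity of 398 in Selp-/- 3 and 5010 to 10757 in the other 5 arrays. No probe set named Selp was analysed here, and the genotype labels were taken as given.

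Promoter sequence from RefSeq (build GRCm38.p6) was matched by symbol to 9 of the 10 member genes, all but Hdac1. The 250 bases before the start site are shown for 3 members on which the results turn. These are Rbbp7, with a probe set that separated the genotypes, its relative Rbbp4, with a probe set that did not, and Ezh2, the member that passed the test of the array number. Capitals mark the letters CCAAT or GGGCGG, the CCAAT box and the GC box, on either strand (ATTGG and CCGCCC on the other), and the marked stretches do not overlap.
Rbbp7 (chrX:162760122-162760371, plus strand): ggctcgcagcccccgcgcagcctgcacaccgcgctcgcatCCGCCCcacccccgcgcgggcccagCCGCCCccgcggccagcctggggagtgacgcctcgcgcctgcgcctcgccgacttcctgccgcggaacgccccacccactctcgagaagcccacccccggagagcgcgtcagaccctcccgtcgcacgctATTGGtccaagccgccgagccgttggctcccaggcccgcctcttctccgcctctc
Rbbp4 (chr4:129335371-129335620, minus strand): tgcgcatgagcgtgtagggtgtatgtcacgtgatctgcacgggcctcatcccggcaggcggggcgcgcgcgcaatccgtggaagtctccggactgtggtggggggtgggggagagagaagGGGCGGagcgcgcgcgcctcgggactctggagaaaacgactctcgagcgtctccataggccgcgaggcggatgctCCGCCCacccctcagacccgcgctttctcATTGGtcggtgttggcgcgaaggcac
Ezh2 (chr6:47595031-47595280, minus strand): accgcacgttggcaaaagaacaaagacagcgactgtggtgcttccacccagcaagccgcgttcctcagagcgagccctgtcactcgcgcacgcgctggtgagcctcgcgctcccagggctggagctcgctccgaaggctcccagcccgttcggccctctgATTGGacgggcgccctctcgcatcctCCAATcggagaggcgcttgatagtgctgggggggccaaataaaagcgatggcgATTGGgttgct

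The stretches of Rbbp7 and Rbbp4 each hold 1 CCAAT box and 2 GC boxes, and that of Ezh2 holds 3 CCAAT boxes and no GC box. CG dinucleotides number 34 in Rbbp7, 30 in Rbbp4 and 23 in Ezh2, against a median of 6 over all 32851 promoter entries of this length. The lowest count among the members was 12. Over the 9 genes, 5 hold a CCAAT box and 7 a GC box, against 33.8% and 32.7% of all entries. The sequences therefore show promoters rich in CG, and nothing in these arrays measured binding at them.

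Of the 2 Rbbp7 probe sets, only 10603011 separated the genotypes. In the order of their numbers the WT arrays read 11.15, 11.24 and 11.03, and the Selp-/- arrays 11.81, 11.78 and 11.70, an order kept for all members below. All 3 Selp-/- arrays lay above all 3 WT arrays. The means were 11.14 ± 0.11 and 11.76 ± 0.06 (log2 level, SD, n = 3), a difference of 0.63 or 1.54 times more in Selp-/- HSC. This is the value by which Rbbp7 was chosen. Groups that do not overlap in this direction were found for 2.24% of the 17289 tested probe sets.

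Taken by array number, the difference of 10603011 was 0.66 in the arrays numbered 1, 0.54 in those numbered 2 and 0.68 in those numbered 3. It was 0.60 in the arrays numbered 1 and 2 alone, and lay between 0.57 and 0.68 when any of the 6 arrays was left out. These values come from the arrays by which the probe set was chosen, so they describe it and do not measure its stability. The deposited intensities showed it before any normalization, at 2281, 1976 and 2525 (WT) and 4414, 3135 and 3900 (Selp-/-). Without normalization between arrays the log2 difference was 0.78, while all tested probe sets then had a median difference of 0.12.

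The other Rbbp7 probe set, 10602164, measured 11.10, 11.52 and 10.77 (WT) and 11.41, 11.33 and 11.00 (Selp-/-). The genotypes overlapped, and WT 2 was the highest of the 6 arrays. The means were 11.13 ± 0.38 and 11.24 ± 0.22 (SD, n = 3), a difference of 0.11 with a 95% interval of -0.41 to 0.64 from limma. By number the difference was 0.30, -0.20 and 0.23, so arrays numbered 2 ran the other way. It was 0.054 in the arrays numbered 1 and 2 alone, -0.066 without WT 3 and 0.31 without WT 2.

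**Figure D1:**
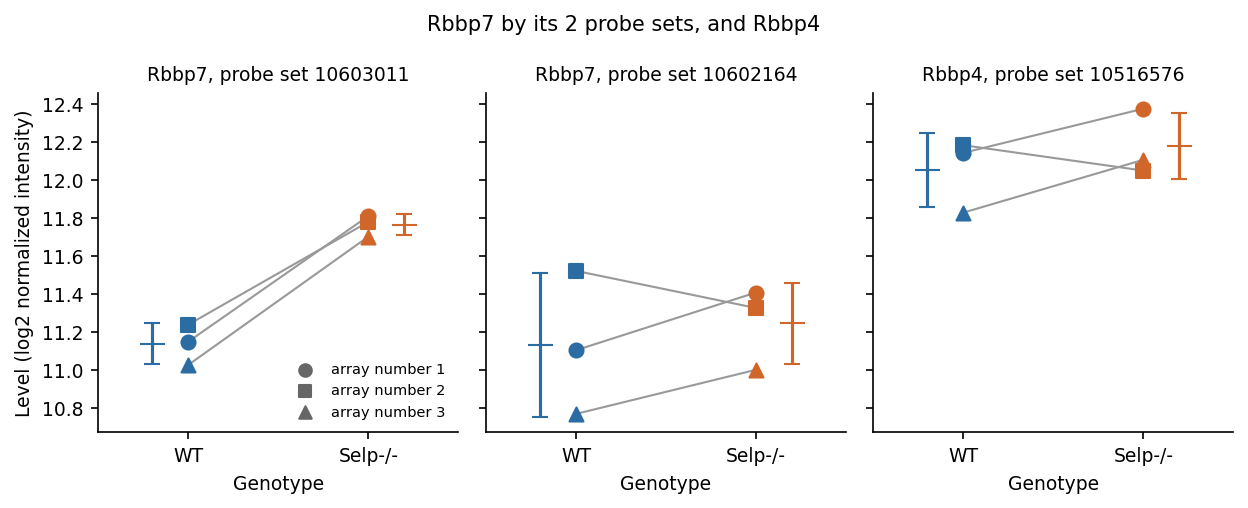
Levels (log2 normalized intensity, y axis) of Rbbp7 probe sets 10603011 and 10602164 and of Rbbp4 in WT and Selp-/- HSC; points are arrays, lines join arrays of the same number, and bars are mean ± SD (n = 3). The genotypes are apart for 10603011, where WT runs from 11.03 to 11.24 and Selp-/- from 11.70 to 11.81, and overlap for 10602164 and Rbbp4.

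The annotation gives both Rbbp7 probe sets the same transcript, yet they lie in different stretches of the array's numbering, which mostly follows the chromosomes (94.3% of consecutive named probe sets share a chromosome). Of the 20 named probe sets nearest in number to 10603011, 20 belong to genes of the X chromosome within 100 places of Rbbp7 in the RefSeq gene order. Of the 20 nearest to 10602164, 20 belong to the X chromosome but 0 lie within 100 places of Rbbp7. The sequences of the probes were not analysed here, and which sequence each probe set measures was not tested.

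The gap between the 2 genotype differences of Rbbp7 was 0.51. Among the 647 genes with at least 2 tested probe sets the median gap was 0.087, and 7 of them (1.08%) had a gap at least as large, Rbbp7 included. The choice of Rbbp7 for its large difference favours such a gap, so it is given as a description. Across the 6 arrays, which share 3 numbers, the levels of the 2 probe sets correlated at r = 0.42.

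The partners of Rbbp7 did not separate the genotypes. Of their 10 tested probe sets, 0 had genotypes that did not overlap, against 4.21% of all tested probe sets in either direction, and limma called 0 at an adjusted p of 0.05, against 0.00% of all. At an unadjusted p under 0.05 limma gave 122 probe sets in all (0.706%) and 0 of the 10, with a lowest unadjusted p of 0.440 among them. With the array number as a block it gave 3.64% of all and 0 of the 10, with a lowest unadjusted p of 0.302. Their differences ran from -0.12 to 0.13 with a median of 0.015, 6 above 0 and 4 below, and the median over all tested probe sets was 0.0054. None of the 10 had the same sign in all 3 pairs of same-numbered arrays, against 23.9% of all tested probe sets. Since Rbbp7 was chosen for its difference, no test was made of the difference between Rbbp7 and its partners.

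Rbbp4, the histone-binding relative of Rbbp7, measured 12.14, 12.18 and 11.83 (WT) and 12.38, 12.05 and 12.11 (Selp-/-). Selp-/- 1 was the highest array and WT 3 the lowest, and the others overlapped. The difference was 0.13 (95% interval -0.24 to 0.49, limma). Its interval with the array number as a block was -0.14 to 0.39, and its adjusted p from limma 0.983. It lay between 0.012, without WT 3, and 0.19, without WT 2, when any array was left out.

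The deacetylases Hdac1 and Hdac2 remove acetyl groups from histones in NuRD. The brighter Hdac1 probe set, 10516605, measured 11.61, 11.78 and 11.68 (WT) and 11.67, 11.70 and 11.63 (Selp-/-), so that all 6 arrays lay between 11.61 and 11.78. The second Hdac1 probe set, 10447004, measured 11.42, 11.68 and 11.63 (WT) and 11.63, 11.61 and 11.53 (Selp-/-). The 2 differences of Hdac1 were -0.027 and 0.012, a gap of 0.039, and their levels correlated at r = 0.85 over the 6 arrays. As with Rbbp7, the numbering sets them apart: Hdac1 lies on chromosome 4, but of the 20 named probe sets nearest in number to 10447004, 19 belong to chromosome 17. Hdac2 measured 10.82, 11.14 and 10.56 (WT) and 11.03, 10.86 and 10.82 (Selp-/-), with a difference of 0.064 (95% interval -0.36 to 0.49, limma). Its WT arrays spanned more than its Selp-/- arrays and enclosed them.

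The scaffold proteins Mta1 and Mta2 hold the deacetylases in NuRD, and Chd4 moves nucleosomes with energy from ATP. Mta1 measured 11.65, 11.27 and 11.20 (WT) and 11.49, 11.55 and 11.14 (Selp-/-). Mta2 measured 11.78, 11.95 and 11.36 (WT) and 11.78, 11.73 and 11.51 (Selp-/-). Chd4 measured 12.01, 11.86 and 11.49 (WT) and 11.99, 12.09 and 11.54 (Selp-/-). In all 3 the arrays numbered 3 were the lowest of both genotypes, and the genotypes overlapped. The differences were 0.018 for Mta1, -0.022 for Mta2 and 0.091 for Chd4, with limma's 95% interval reaching from -0.40 to 0.58 for Chd4.

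In the PRC2 core, Ezh2 is the methyltransferase, Eed binds the methyl mark and Suz12 holds the complex together. Ezh2 measured 11.98, 12.01 and 11.39 (WT) and 12.16, 11.87 and 11.44 (Selp-/-), a difference of 0.034 (95% interval -0.55 to 0.62, limma). Eed measured 10.35, 9.89 and 9.85 (WT) and 10.05, 9.94 and 9.75 (Selp-/-) by probe set 10565486, the tested set, a difference of -0.12. Suz12 measured 11.64, 11.51 and 11.32 (WT) and 11.46, 11.25 and 11.59 (Selp-/-), a difference of -0.053. Its 2 genotypes overlapped, with Selp-/- 2 the lowest array and WT 1 the highest. The second Eed probe set, 10554837, lay between 7.48 and 8.07 in the 6 arrays, below the limit for testing.

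Over the 10 partner probe sets the 95% intervals from limma spanned -0.55 to 0.62. With the array number as a block they spanned -0.38 to 0.39, or 0.770 to 1.31 times, and 0 of the 10 passed (lowest adjusted p 0.983). The intervals give the sizes that the data leave possible for each partner, and a p that misses the threshold does not show that the levels were alike. The largest difference of a partner in any pair of same-numbered arrays was 0.28 and the lowest -0.29.

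**Figure D2:**
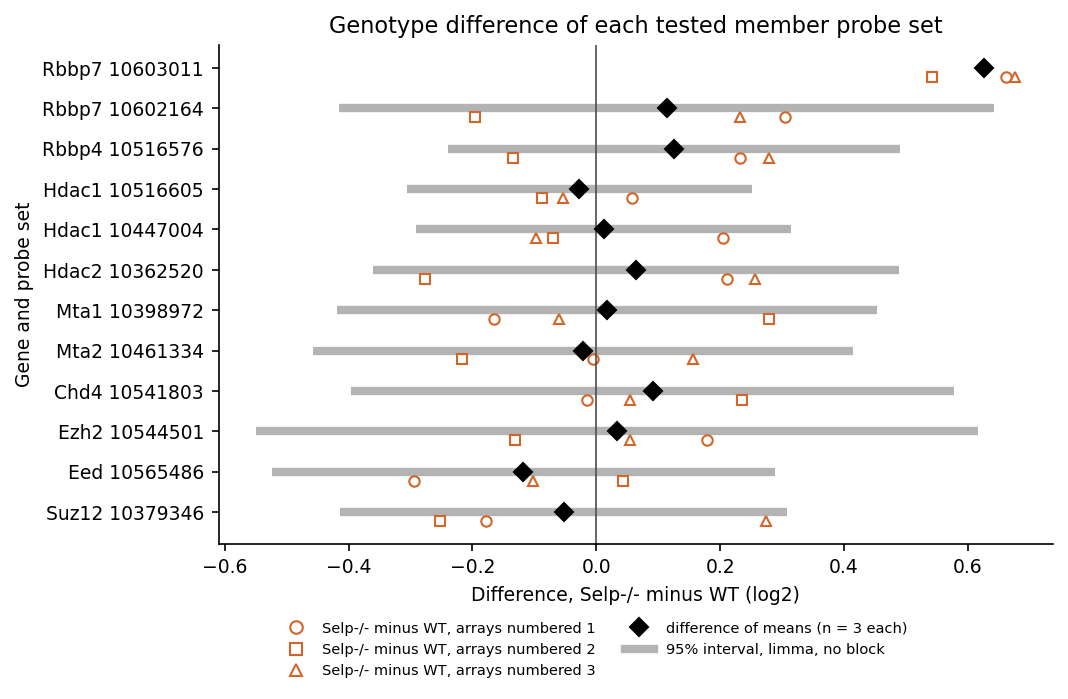
Difference Selp-/- minus WT (log2, x axis) of the 12 tested member probe sets; diamonds are differences of means (n = 3 each), open symbols the differences within each array number and grey bars 95% intervals from limma without a block, left out for Rbbp7 10603011, which was chosen by this value and is no basis for a comparison. The 3 pair differences of 10603011 lie between 0.54 and 0.68, and those of the partners between -0.29 and 0.28.

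By array number the members lay lower in number 3. On average the arrays numbered 3 lay below the other 4 for 12 of 12 tested member probe sets, against 52.0% of all tested probe sets. For 7 of the 12 (58.3%) both arrays numbered 3 were the lowest, against 25.1% of all. The 7 were Rbbp7 by 10602164, Hdac2, Mta1, Mta2, Chd4, Ezh2 and Eed. The members are not independent of each other. The pattern depended on the scaling: with arrays centred on their medians 9 of 12 lay below on average and 5 had both arrays lowest, and without normalization 7 of 12 and 0. In that last setting 24.6% of all tested probe sets lay below on average, and their median was shifted by 0.21.

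Ezh2 passed the test of the array number, with an adjusted p of 0.0342 from limma's F test, and fell by 0.59 in the arrays numbered 3 relative to the other 4. It was the only member called of 12 (8.33%), against 12.8% of all tested probe sets, so the share of members called was no higher than the background. The call was lost with median centring (adjusted p 0.0505, limma), and without WT 2, WT 3, Selp-/- 1 or Selp-/- 3 (adjusted p from 0.0625 to 0.195, limma), while the difference lay between -0.62 and -0.53 in these settings. Chd4 was -0.47 in number 3 relative to the others and did not pass (adjusted p 0.0629, limma).

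Rbbp7 by 10602164 was -0.46 by the same measure, Mta2 -0.37, Mta1 -0.32, Hdac2 -0.28, Eed -0.25 and Rbbp4 -0.22, and none of these passed. Rbbp7 by 10603011 was -0.13, Hdac1 -0.035 and -0.0065 by its 2 probe sets and Suz12 -0.011. Between the arrays numbered 2 and 1 the sign was mixed, with -0.13 for Ezh2, -0.29 for Eed and 0.17 for Rbbp7 by 10602164 (number 2 minus number 1).

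Markers of other cell types differed by the array number too. The summed intensity of the 9 tested HSC markers was 10970 to 14060 in the arrays numbered 3 and 21270 to 29540 in the other 4. That of 7 mast cell and basophil markers was 45280 to 60820 against 7333 to 9249, and that of 10 neutrophil markers 80160 to 81290 against 22060 to 53660. Gata2 is on both the HSC and the mast cell and basophil lists, so these 2 sums share a gene. It rose by 0.86 in number 3, to 13.02 (WT 3) and 12.30 (Selp-/- 3), the brightest HSC marker there. The other 8 HSC markers lay lower on average in number 3. Monocyte and macrophage markers, 9 tested, summed to 14390 to 18020 against 7874 to 9986. Lower in number 3 were the sums of 6 erythroid markers, 4021 to 4438 against 6956 to 22470, and of 8 B lymphoid markers, 4620 to 5805 against 7957 to 11250. The 7 megakaryocyte markers summed to 13360 to 23330 against 6613 to 10920. The arrays numbered 1 and 2 differed from each other as well. All 10 neutrophil and all 6 erythroid markers lay lower in number 2, with medians of -1.07 and -0.93 (number 2 minus number 1). The HSC and B lymphoid markers all lay higher in number 2, with medians of 0.34 and 0.33. Of the defining HSC genes, Hlf came near the limit for testing and Mecom, a regulator of HSC maintenance, lay below it at 8.16 and 8.01 in number 3. Their part in the levels of Ezh2 and the other members was not tested. In bulk samples such as these, fewer cells of a type and less RNA per cell cannot be told apart.

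By genotype the same sums overlapped. Each range holds arrays of every number, and the sums differed by number, so this overlap cannot show whether the genotypes differed. In limma with the array number as a block, 0 markers of these lists were called between genotypes. An unadjusted p under 0.05 in that fit was reached by 2 neutrophil, 2 monocyte and macrophage and 1 B lymphoid markers. The HSC markers summed to 14060 to 26320 in WT and 10970 to 29540 in Selp-/- HSC, and the mast cell and basophil markers to 7333 to 60820 and 7484 to 45280. The neutrophil markers summed to 23860 to 80160 and 22060 to 81290. Monocyte and macrophage markers summed to 7874 to 14390 and 9174 to 18020. Of these 9 markers 7 lay above 0 in Selp-/- minus WT, with a median of 0.26 that was 0.32 with median centring and 0.41 without normalization, and limma called 0. These 9 ran from -0.17 to 0.40, the 10 neutrophil markers from -0.78 to 0.37 and the 8 B lymphoid markers from -0.64 to 0.29. F13a1, a coagulation factor subunit made by monocytes, differed by 0.40 with genotypes that did not overlap. Irf8, a transcription factor of monocytes, differed by 0.37 with genotypes that did. The part of these markers in the Rbbp7 difference was not tested.

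**Figure D3:**
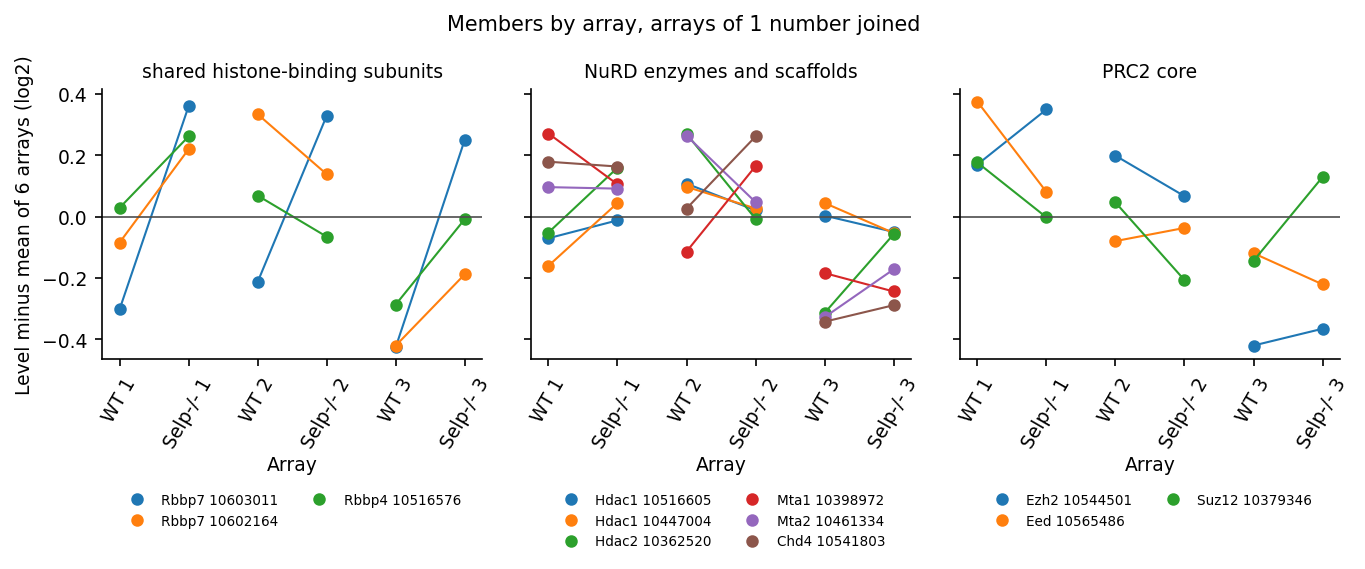
Level of each tested member probe set in each array minus its mean over the 6 arrays (log2, y axis), in panels by role, with arrays of the same number joined. Rbbp7 10603011 lies above 0 in all 3 Selp-/- arrays and below in all 3 WT arrays, while Ezh2, Chd4, Mta1 and Mta2 are lowest in both arrays numbered 3.

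Over the 6 arrays, which share 3 numbers, the levels of Rbbp7 by 10602164 correlated with those of Hdac2 at r = 0.95, Mta2 at 0.92 and Ezh2 at 0.85. Those of 10603011 correlated with the same 3 at 0.37, 0.16 and 0.25. These values describe how alike the profiles were and carry no test.

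Other subunits of these and related complexes were counted by lists, using the brightest probe set of each gene. The 5 lists held other NuRD subunits, other PRC2 subunits, the Sin3 deacetylase complex, further complexes of Rbbp4 and Rbbp7 such as the chromatin assembly factor CAF-1, and PRC1, which binds the mark that PRC2 places. Of their 48 genes 44 were tested, limma called 0 between genotypes and 0 had an unadjusted p under 0.05. With the array number as a block, 1 of the 44, Mbd3, had an unadjusted p under 0.05, against 3.64% of all tested probe sets. Above 0 lay 17 and below 0 lay 27, against 55.8% of all tested genes above 0. The genotypes did not overlap for 1 of the 44 (2.27%), against 4.21% of all tested probe sets, and 1 gene is too few to tell these shares apart.

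That gene was Mbd3, the NuRD subunit related to methyl-CpG-binding proteins. It measured 10.73, 10.72 and 10.80 (WT) and 11.14, 10.97 and 10.96 (Selp-/-), so all Selp-/- arrays lay above all WT arrays. Its difference was 0.28 (SE 0.12), with an adjusted p of 1.00 in limma without the block and 0.983 with it. With the block the 95% interval of Mbd3 was 0.017 to 0.53 and its unadjusted p 0.0399 (limma). The NuRD subunits Mta3 and Chd3 differed by -0.15 (SE 0.16) and -0.13 (SE 0.18), with genotypes that overlapped. The 7 NuRD genes had a median of -0.040, against 0.016 over all tested genes.

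The 6 other PRC2 subunits had a median of -0.031 with 2 above 0. Phf1, which binds methylated histone H3, was -0.14, the PRC2 cofactor Jarid2 -0.099 and Aebp2 0.070. The 11 tested Sin3 genes had a median of -0.028 with 3 above 0, and Ing1, Brms1 and Arid4a were -0.091, -0.067 and -0.064. The 7 tested genes of further complexes had a median of -0.0042, with 0.13 for the CAF-1 subunit Chaf1a, 0.11 for the corepressor Rcor1 and 0.072 for the remodeller Smarca5. The 13 tested PRC1 genes had a median of -0.027, and their subunits Cbx8, Pcgf3 and Cbx2 were 0.11, -0.12 and -0.23. None of these named genes had genotypes that stood apart.

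**Figure D4:**
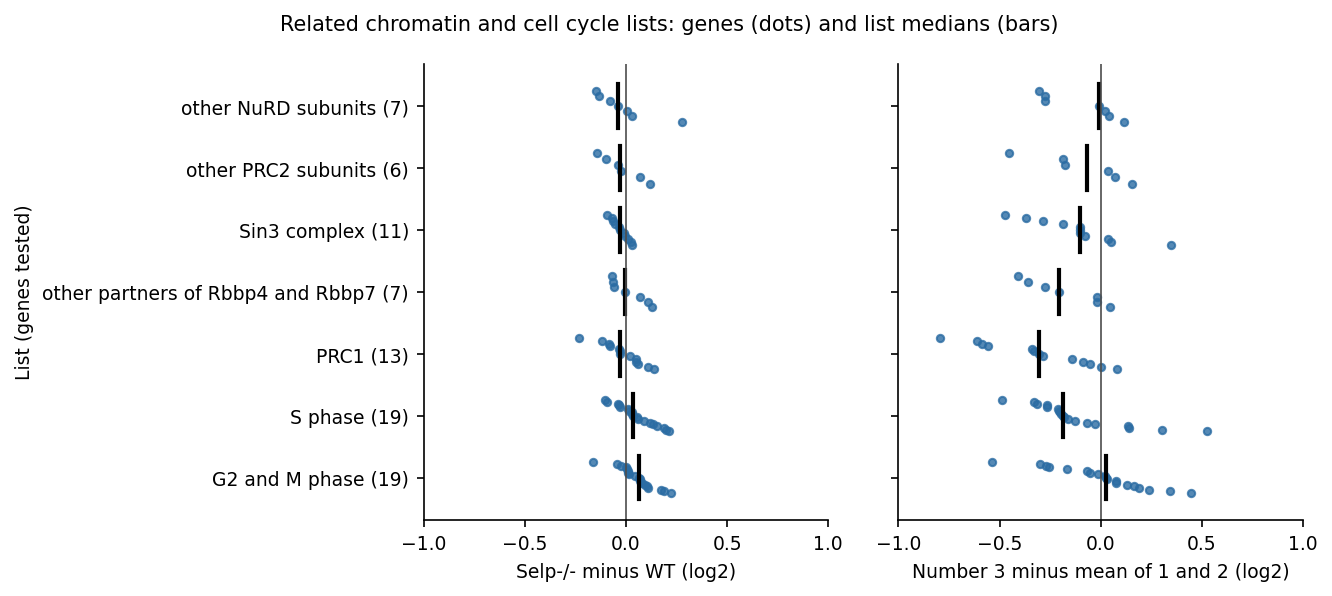
Difference Selp-/- minus WT (left, log2) and number 3 minus the mean of numbers 1 and 2 (right, log2) of the tested genes (dots) of 7 lists, with list medians (bars). The genotype differences of the 5 chromatin lists lie between -0.23 and 0.28 around medians near 0, and PRC1 genes lie lower in number 3 with a median of -0.31.

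For the array number 4 of the 44 chromatin genes passed (9.09%, against 13.5% of all tested genes). The PRC1 subunits Cbx2, Cbx7 and Rnf2, of which Rnf2 attaches ubiquitin to histone H2A, fell by 0.79, 0.59 and 0.61 in number 3 relative to numbers 1 and 2. The Sin3 subunit Sap30 was at 0.35 by the same measure. It was at 0.0068 for number 3 minus number 1 and at -0.68 for number 2 minus number 1. These 4 kept their direction with median centring and without normalization, where Cbx7 no longer passed (adjusted p 0.178, limma) and the PRC1 median was -0.097. In all, 32 of the 44 (72.7%) lay lower on average in number 3, against 52.0% of all tested probe sets. The 44 are the brightest probe sets of their genes. Over all tested genes so chosen the median was 0.0078 by this measure, and over all tested probe sets -0.013. The lower levels of the chromatin genes depended on the scaling. Without normalization the medians were 0.25 for other NuRD subunits, 0.17 for other PRC2 subunits, 0.11 for Sin3 and 0.064 for further partners. The median over all tested probe sets was then 0.21.

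Genes of cell division were counted beside the PRC2 core, since Ezh2 is known to be made in dividing cells. Of 19 tested S phase genes, 15 lay lower on average in number 3, with a median of -0.19 that was 0.047 without normalization. Of the 19, 2 were called, Rrm2 at 0.52 and Ccne1 at 0.31. Ccne1 was at -0.94 for number 2 minus number 1 and at -0.16 for number 3 minus number 1. Of 19 tested G2 and M phase genes 8 lay lower, with a median of 0.025, and 3 were called. Mki67 fell by 0.54. Plk1 was at 0.45, with -0.57 for number 2 minus number 1 and 0.16 for number 3 minus number 1. Ccna2 was at 0.076, with -0.66 for number 2 minus number 1. Between numbers 2 and 1 all 19 genes of both lists lay lower in number 2, with medians of -0.27 for S phase and -0.39 for G2 and M phase, against 0.013 over all tested probe sets. With median centring all 19 of each again lay lower, as did 10920 of the 17289 tested probe sets. Without normalization all 19 of each lay lower too, but so did 16260 of all tested probe sets. That last setting therefore says little about these lists. Between genotypes limma called 0 of either list, with medians of 0.035 and 0.063. Cdt1, Mcm5 and Gins1 of S phase were 0.19, 0.21 and 0.20, and Cdc20, Ttk and Nusap1 of G2 and M phase 0.22, 0.17 and -0.16.

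Genes next to Rbbp7 on the X chromosome were set beside it. Of the 20 genes within 10 places in the RefSeq order 5 were tested, 2 above 0 and 3 below, and limma called 0. Txlng, the next gene, was -0.027 (SE 0.19) and Syap1, 4 places away, 0.23 (SE 0.21). Ctps2 and S100g were 0.099 and -0.034. The genotypes overlapped for these 4. On the other side the only tested gene was Nhs, 10 places away, at -0.13 (SE 0.095, unadjusted p 0.213, limma). Its Selp-/- arrays (8.75 to 8.87) lay below its WT arrays (8.89 to 9.04), all close to the limit of 8.79 for testing. Genotypes that did not overlap were found for 4.21% of all tested probe sets. Over the 318 tested X-linked genes the median difference was 0.038, with 60.4% above 0, against 0.016 and 55.8% over all tested genes. The array Selp-/- 3, low in Xist, measured 11.70 for Rbbp7 by 10603011, close to the 11.81 and 11.78 of the other Selp-/- arrays.

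The genes most like Rbbp7 by 10603011 over the 6 arrays were Armh3, Eipr1, Rnf40, Fam91a1 and Sepsecs, with Pearson's r of 0.99, 0.97, 0.96, 0.96 and 0.96 and Spearman's rho of 0.94, 0.77, 0.94, 0.94 and 1.00. All 5 had higher levels in every Selp-/- array than in every WT array, as a likeness to Rbbp7 requires, with differences from 0.11 to 0.25. Rnf40, a ubiquitin ligase for histone H2B, averaged 10.29 ± 0.07 over the WT and 10.49 ± 0.04 over the Selp-/- arrays (SD, n = 3). Sepsecs, an enzyme of selenocysteine synthesis, measured 9.67 ± 0.05 and 9.79 ± 0.01. Members were left out of this ranking. Taken apart from it, the highest correlation of a partner with 10603011 was 0.54, of Rbbp4.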

How the data were processed

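Expression was measured on 6 one-colour arrays of amplified, biotin-labelled RNA, 3 per genotype. The values, as deposited, are intensities on a linear scale. The submitters' processing notes name MAS5 and give no version. All were multiples of 0.5, and whether MAS5 scaled them is unknown. Intensities were background corrected (normexp, offset 50), log2 transformed and normalized by quantiles. Probe sets under the 40th percentile of mean level were left out, which left 17289. Genotype was fitted with limma 3.58.1 (R 4.3.3; lmFit, eBayes with trend, two-sided, Benjamini-Hochberg over all tested probe sets, threshold 0.05). The array number was tested by an F test in the fit with genotype and number. The code was tested on simulated data. Symbols came from the platform annotation: 21780 probe sets had 1 symbol, 1605 several and 5430 none, and 21689 matched RefSeq genes (GRCm38.p6).

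Members and lists were chosen with earlier results of these data known. Named are all members, up to 3 genes per list by smallest p, the tested neighbours of Rbbp7 and the 5 genes most correlated with it. Members and clone names were left out of that last ranking. Genes called for the array number were named after their values were seen. Deviations from the genotype means correlated at 0.43, 0.53 and 0.81 between same-numbered arrays, so the numbers were taken to pair them. Alternatives were other normalizations, filters and variance models, the replicate block, and arrays left out. The number of arrays limits the precision.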

Additional observations from a re-analysis of the deposited data

How the results depend on the processing

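With the replicate block, which pairs arrays of the same number, 0 probe sets were called between genotypes, the difference of Rbbp7 by 10603011 stayed at 0.63 and no other call changed. In the arrays numbered 1 and 2 alone 4 probe sets were called, none of them a member. Without normalization, where all probe sets shift by 0.12, that Rbbp7 difference was 0.78, and Hdac1 by 10516605 (0.13), Mta2 (0.12), Eed (0.013) and Suz12 (0.10) changed sign. The list medians were then 0.077 for other NuRD subunits, 0.11 for Sin3 and 0.14 for further partners. Median centring reversed Hdac1 by 10516605 (0.034), Mta2 (0.026) and Suz12 (0.010), and arrays 1 and 2 alone reversed Hdac2 (-0.032). Without each array in turn, genotype differences ran from -0.067 to 0.020 and from -0.064 to 0.065 for the Hdac1 sets 10516605 and 10447004, -0.076 to 0.22 for Hdac2, -0.070 to 0.16 for Mta1, -0.19 to 0.11 for Mta2, -0.058 to 0.26 for Chd4, -0.17 to 0.23 for Ezh2, -0.21 to 0.040 for Eed and -0.14 to 0.038 for Suz12. All 7 list medians took both signs, from -0.063 to 0.045 for other NuRD subunits, -0.054 to 0.045 for Sin3, -0.069 to 0.036 for PRC2, -0.062 to 0.073 for further partners, -0.12 to 0.10 for PRC1, -0.062 to 0.14 for S phase and -0.051 to 0.18 for G2 and M phase.

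For the array number, 6364 probe sets were called without normalization and 1036 to 2153 without each array in turn, the lowest without WT 3. Without normalization 7 member probe sets lay below in number 3, and the differences of Rbbp7 10603011 (0.16), Rbbp4 (0.042), Hdac1 (0.26 and 0.29) and Suz12 (0.28) changed sign. There Rbbp4, Eed and Suz12 passed beside Ezh2 (adjusted p 0.0420, 0.0417, 0.0298 and 0.0223, limma's F test). Chd4 passed when genotype was left out of the fit (adjusted p 0.0430, limma's F test). Median centring reversed Hdac1 (0.037 and 0.070) and Suz12 (0.054) and ended the call of Ezh2 (-0.53). Leaving out arrays gave -0.62 to -0.55 for Ezh2, -0.47 to 0.21 for Rbbp7 10603011, -0.058 to 0.046 for Hdac1 10447004 and -0.15 to 0.13 for Suz12. The cause of these shifts was not tested.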
